A study of Mus musculus with 35 samples.

Results

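The subject is a group of 5 genes of the brain extracellular matrix, followed through the cortical astrocyte response to lipopolysaccharide (LPS), the endotoxin of Gram-negative bacteria, which provokes inflammation throughout the body. They are the lecticans Bcan (brevican), Ncan (neurocan) and Vcan (versican), the hyaluronan and proteoglycan link protein Hapln1, and the glycoprotein Tnc (tenascin C). The members were taken by gene name, 5 of the 19573 genes of the deposited table, and each had 1 entry. Levels are given as FPKM, that is, fragment counts corrected for transcript length and for the size of the library, in 35 bulk RNA libraries. Fluorescent cells were isolated with a cell sorter from cortices of Aldh1l1egfp mice at postnatal day 30 to 35. Every mouse, saline controls included, carried this reporter, in which green fluorescent protein is driven by Aldh1l1, a gene of astrocytes. Females given 5 mg/kg LPS were sampled at 3 h (n = 5), 24 h (n = 4) and 72 h (n = 3), and females given saline at 3 h (n = 4), 24 h (n = 5) and 72 h (n = 4). Males were sampled at 24 h, after LPS (n = 5) or saline (n = 5). The labels do not say that the libraries of a group came from separate animals, and each p-value therefore rests on variation among libraries that may be technical.

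Lecticans are core proteins that carry chondroitin sulphate chains. One end of the molecule binds hyaluronan, a long unbranched sugar polymer at the cell surface, and the other end binds tenascins. Link proteins clamp the lectican to hyaluronan, and the ternary assembly forms the diffuse brain matrix and the perineuronal nets around neurons. Astrocytes are a main source of brevican and neurocan, and Tnc is an astrocyte and radial glia product that also binds integrins.

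In the gene annotation (GENCODE M21, build GRCm38) Bcan lies on chromosome 3 from 87987531 to 88000230, Ncan on chromosome 8 from 70093085 to 70120873 and Tnc on chromosome 4 from 63959785 to 64047015, all on the minus strand. Vcan, on the minus strand of chromosome 13 from 89655312 to 89742509, and Hapln1, on its plus strand from 89539796 to 89611652, are neighbours: 43.66 kb separate them, with 0 protein-coding genes between. Ncan has the link protein gene Hapln4 2.223 kb away and Bcan has Hapln2 21.52 kb away, likewise with 0 protein-coding genes between. Part of Tnc is overlapped by a transcript of the opposite strand (8030451A03Rik, over 67162 bases), and part of Vcan by the antisense gene Gm4117 (3050 bases). Whether counting used strand is not given in the sources used here, so reads of such pairs cannot be told apart.

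Ncan, Hapln1 and Tnc were the 3 genes lower after LPS in females at 24 h (below), and the 250 bases before their transcription starts are shown for that reason. They come from RefSeq (GRCm38.p6), read 5′ to 3′ on the gene's strand: Ncan at chr8:70120845-70121094 (minus), Hapln1 at chr13:89540386-89540635 (plus) and Tnc at chr4:64046937-64047186 (minus). Tnc has a start at 64046936, used here, and another at 64047015. Capitals mark the letters TATAA on either strand.
Ncan: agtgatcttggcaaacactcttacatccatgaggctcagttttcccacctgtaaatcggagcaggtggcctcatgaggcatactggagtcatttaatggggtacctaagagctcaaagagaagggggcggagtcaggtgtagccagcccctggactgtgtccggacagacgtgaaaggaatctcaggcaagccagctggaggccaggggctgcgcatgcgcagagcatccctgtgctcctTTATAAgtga
Hapln1: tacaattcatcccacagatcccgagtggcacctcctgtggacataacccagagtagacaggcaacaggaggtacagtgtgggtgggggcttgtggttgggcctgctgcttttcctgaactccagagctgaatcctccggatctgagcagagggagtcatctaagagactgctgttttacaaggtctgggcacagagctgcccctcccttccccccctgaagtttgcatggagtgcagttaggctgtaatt
Tnc: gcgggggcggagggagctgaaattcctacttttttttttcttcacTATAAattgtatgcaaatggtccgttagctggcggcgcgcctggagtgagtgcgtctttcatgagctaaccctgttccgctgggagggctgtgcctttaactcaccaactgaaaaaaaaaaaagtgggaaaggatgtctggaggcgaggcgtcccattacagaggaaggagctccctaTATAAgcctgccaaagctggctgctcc
TATAA was present at positions -205 and -27 from this Tnc start and at position -9 of Ncan, where the letters also match on the opposite strand, and was absent from the Hapln1 window. It was present in 24.8% of 32544 RefSeq windows running from 250 bases before to 50 bases after a start. The same search over both strands used CCAAT (37.4% of windows), the AP-1 letters TGANTCA (7.79%), the STAT letters TTCNNNGAA (8.33%), a glucocorticoid response element (0.476%) and an NF-kB motif (4.53%). CCAAT occurred at position -153 of Bcan and, on the opposite strand, at position -103 of Vcan. None of the other 4 motifs had its letters in any of the 6 windows of the 5 genes.

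The 5 genes covered a wide span of levels per transcript length. Bcan was among the most abundant transcripts of the table, with a mean of 828.3 FPKM over the 35 libraries (range 364.8 to 1410; rank 54 of 19573 genes). Ncan averaged 77.61 FPKM (40.86 to 136.1; rank 616), Hapln1 32.04 FPKM (13.81 to 62.57; rank 2029), Tnc 7.855 FPKM (1.482 to 15.2; rank 7782) and Vcan 2.894 FPKM (0.5995 to 7.496; rank 12358). Bcan exceeded Ncan, Ncan exceeded Hapln1 and Hapln1 exceeded Tnc in 35 of 35 libraries. Tnc exceeded Vcan in 33, and the exceptions were 24 h LPS libraries (female replicate 4 and male replicate 2). Brevican supplied most of the summed lectican level in every group, from 88.0% to 91.3% of it in female saline libraries at 24 h.

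Defining markers were measured in every library. The astrocyte genes Slc1a2, a glutamate transporter, Aqp4, a water channel, and Aldh1l1 were at 469.8 to 927.2, 150.8 to 313.1 and 53.83 to 289.5 FPKM. Markers of oligodendrocyte precursors, which also make lecticans and Tnc, were lower than these astrocyte genes. Pdgfra was at 0.1462 to 3.506, Cspg4 at 0.3671 to 7.33 and Sox10 at 0.5552 to 7.164 FPKM. Vcan and Tnc were themselves at 0.5995 to 7.496 and 1.482 to 15.2 FPKM, and which cells supplied them was not tested. The 12 precursor markers scored below summed to 39.85 to 162.4 FPKM per library. The neuron gene Snap25 was at 35.55 to 175.4 FPKM and the myelin gene Mbp at 10.55 to 1082 FPKM. The share of the summed FPKM in genes of the mitochondrial genome ran from 4.86% to 24.4%, and it was low in 24 h LPS libraries: 5.57% to 17.3% in LPS females against 8.88% to 24.4% in saline females, and 4.87% to 16.3% in LPS males against 16.8% to 23.4% in saline males. The deposited values also come in 2 number formats, single precision in 11 libraries, all from 24 h, and double precision in 24 libraries. What the format marks is unknown. It was taken as a possible batch in alternative fits only and was not a term of the main fit.

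**Figure D1:**
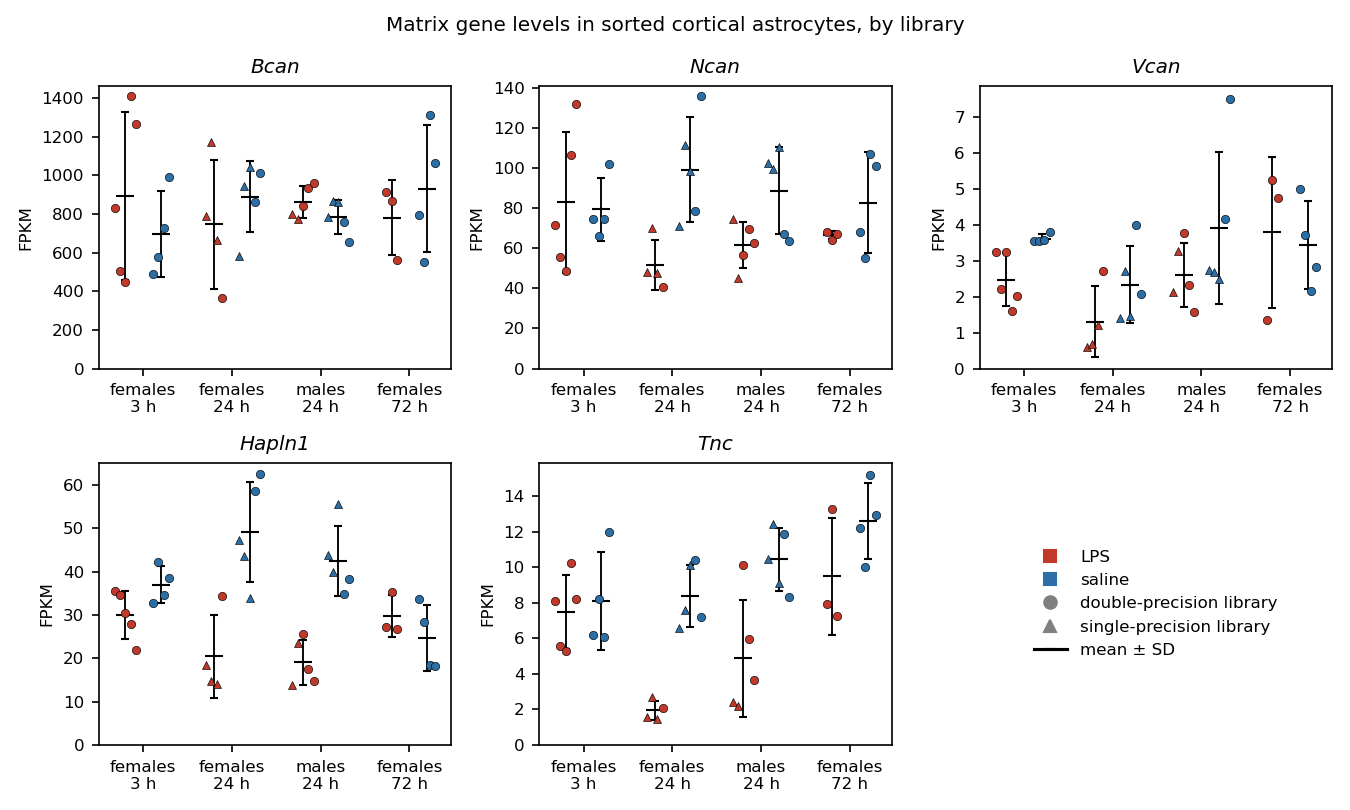
Level of each gene (FPKM, vertical axis) in each of the 35 libraries by sex and time, with LPS libraries in red left of saline libraries in blue, circles for double-precision and triangles for single-precision libraries, and bars for mean ± SD. Tnc and Hapln1 are low in 24 h LPS libraries of both sexes, apart from male replicate 3 in Tnc (10.13 FPKM) and female replicate 4 in Hapln1 (34.41 FPKM), Ncan is low in those of females, and Bcan spreads widely within groups.

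At 24 h after LPS, the tenascin and the link protein were lower in both sexes and neurocan was lower in females, while brevican and versican did not pass the test. Differences were tested with limma on log2(FPKM + 1) over the 19426 genes that reached 1 FPKM in 3 or more libraries, a filter that all 5 genes passed, at a Benjamini-Hochberg adjusted p under 0.05. In females 3 of the 5 genes were called lower and 0 higher, where 0.798% of all genes were called lower and 2.54% higher. In males 2 were called lower and 0 higher, where 1.82% of all genes were called lower and 7.08% higher; 3 of the 5 had an unadjusted p under 0.05 in each sex. The median log2 fold change of all genes tested was 0.05 in females and 0.18 in males. In whole-sample values such as these, fewer cells making a transcript and less of it per cell cannot be told apart.

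Neurocan, the soluble lectican of the developing and adult brain matrix, was measured at 48.23, 69.89, 47.84 and 40.86 FPKM in LPS females at 24 h. In saline females it was measured at 71.3, 111.6, 98.38, 78.51 and 136.1 FPKM. All LPS libraries lay below all saline libraries, though the highest LPS library came within 2 FPKM of the lowest saline library; 1.745% of all genes tested had every LPS library below every saline library in females at 24 h, and 2.116% in males. The means were 51.71 ± 12.6 FPKM after LPS and 99.18 ± 26.1 FPKM after saline (SD), a log2 fold change of -0.92 (SE 0.26, adjusted p = 0.0378, limma). This call was close to the threshold: it was lost when any of 6 of the 9 libraries was left out (LPS replicates 1, 3 and 4, saline replicates 2, 3 and 5), with log2 fold changes of -0.79 to -1.07 and adjusted p up to 0.115 over the 9 fits.

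In males Ncan was at 74.38, 45.03, 56.56, 69.54 and 62.86 FPKM after LPS. In saline males it was at 102.3, 99.6, 110.5, 67.15 and 63.38 FPKM, so that 3 of the 5 LPS libraries were below every saline library. The means were 61.67 ± 11.5 and 88.58 ± 21.7 FPKM, and the log2 fold change of -0.50 (SE 0.24, adjusted p = 0.161) did not pass. It passed under scalings that bring the median of all genes in this contrast from 0.18 to near 0: -0.70 (adjusted p = 0.0176) by median of ratios and -0.70 (adjusted p = 0.0173) by quantile normalization. Both saline libraries with low Ncan, replicates 4 and 5, are of double precision, and within that format the log2 fold change was -0.05 (adjusted p = 0.919), against -0.83 (adjusted p = 0.244) within single precision. In females the values were -0.75 (adjusted p = 0.142) within single precision and -1.32 (adjusted p = 0.532) within double precision, where only 1 LPS library remains.

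Brevican, the lectican most restricted to the nervous system, was at 788.6, 1172, 663.8 and 364.8 FPKM in LPS females at 24 h. In saline females it was at 583.1, 946, 1042, 864 and 1013 FPKM. The groups overlapped, and the log2 fold change was -0.34 (SE 0.32, adjusted p = 0.702). Male levels were tighter, with 800.5, 776.3, 839.6, 932.4 and 960.2 FPKM after LPS and 784.6, 865.7, 862.5, 757.2 and 654.7 FPKM after saline, and the log2 fold change of 0.14 (SE 0.30, adjusted p = 0.777) had a 95% interval of -0.47 to 0.74. That sign turned to -0.07 with scaling by median of ratios and to -0.09 within single-precision libraries.

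Versican, a lectican of many tissues that oligodendrocyte precursors also make, was scarce here. At 24 h it was at 0.5995, 0.6786, 1.215 and 2.721 FPKM in LPS females and at 1.394, 2.72, 1.47, 3.991 and 2.059 FPKM in saline females. LPS replicates 1 to 3 lay below every saline library and replicate 4, with 2.721 FPKM, lay within the saline range, and the log2 fold change of -0.56 (SE 0.30, adjusted p = 0.409) did not pass. In males it was at 2.125, 3.274, 3.761, 2.325 and 1.575 FPKM after LPS and at 2.726, 2.687, 2.502, 4.153 and 7.496 FPKM after saline, a log2 fold change of -0.39 (SE 0.28, adjusted p = 0.340). The pseudocount of 1 shrinks fold changes of a gene at this level.

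The link protein Hapln1 was lower after LPS in both sexes at 24 h. In females it was at 18.48, 14.76, 14.11 and 34.41 FPKM after LPS and at 47.28, 43.68, 33.82, 58.52 and 62.57 FPKM after saline. Replicates 1 to 3 of the LPS group lay far below every saline library, and replicate 4, the only double-precision LPS library of the females, lay just above the lowest saline library. The means were 20.44 ± 9.51 and 49.17 ± 11.6 FPKM, a log2 fold change of -1.28 (SE 0.24, adjusted p = 6.004e-04). In males it was at 13.81, 23.42, 25.69, 17.64 and 14.74 FPKM after LPS, all below the 43.85, 39.94, 55.53, 34.81 and 38.18 FPKM after saline. The means were 19.06 ± 5.27 and 42.46 ± 8.001 FPKM, and the log2 fold change was -1.14 (SE 0.22, adjusted p = 0.00149).

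Both Hapln1 calls remained when any single library of the contrast was left out, with log2 fold changes of -1.15 to -1.56 in females and -1.04 to -1.25 in males. Within single precision the values were -1.34 (adjusted p = 0.0105) in females and -1.31 (adjusted p = 0.0537) in males. Within double precision it was -0.92 (adjusted p = 0.118) in males, and in females, where 1 LPS library remains and a test can say little, -0.797 (adjusted p = 0.882). The direction was the same in each format, and neither male fit within a format passed.

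Tenascin C had the largest fold change of the 5 genes in females. It was at 1.575, 2.682, 1.482 and 2.072 FPKM after LPS and at 6.598, 7.61, 10.14, 10.41 and 7.221 FPKM after saline at 24 h. The highest LPS library was below the lowest saline library by a wide margin, and the LPS mean of 1.95 ± 0.551 FPKM was 0.233 times the saline mean of 8.39 ± 1.75 FPKM. The log2 fold change was -1.67 (SE 0.27, adjusted p = 1.143e-04). In males it was at 2.42, 2.216, 10.13, 5.955 and 3.631 FPKM after LPS and at 10.47, 12.42, 9.106, 11.86 and 8.32 FPKM after saline. Replicate 3 of the LPS males sat inside the saline range while the other 4 were below it, and the log2 fold change was -1.11 (SE 0.26, adjusted p = 0.00665).

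Without that library the male value was -1.38 (adjusted p = 2.754e-04), and the Tnc calls of both sexes remained whichever library was left out. Within single precision Tnc fell by 1.65 on the log2 scale in females (adjusted p = 0.003425) and by 1.80 in males (adjusted p = 0.0124). Within double precision the male value was -0.62 (adjusted p = 0.340) and did not pass. The female value there was -1.66, close to that of the full fit, with 1 LPS library, so that its adjusted p of 0.637 says little. Replicates 3 to 5 of the LPS males, the double-precision ones, had more Tnc than replicates 1 and 2.

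**Figure D2:**
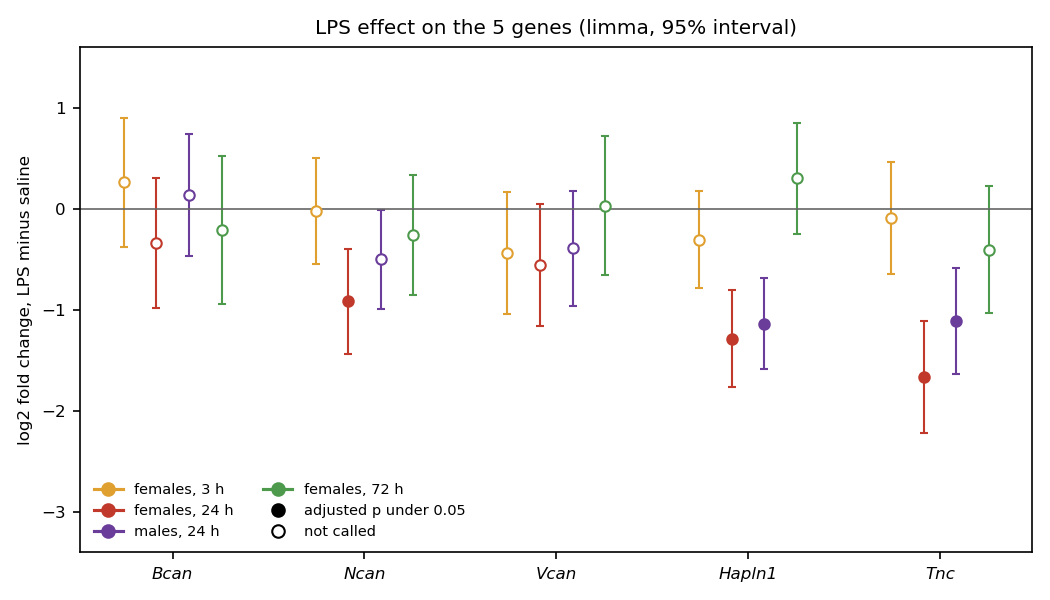
Log2 fold change of each gene (LPS minus saline, limma, vertical axis) with its 95% interval in the 4 LPS contrasts, filled where the adjusted p was under 0.05. Filled points are Ncan in females at 24 h and Hapln1 and Tnc in both sexes at 24 h, from -0.92 to -1.67.

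The mitochondrial share moved with some of these genes across libraries. Bcan was at 1410 and 1266 FPKM in the 3 h LPS libraries with shares of 7.17% and 7.63%, and at 449.6 to 833.2 FPKM in the other 3, with shares of 17.8% to 21.8%. It was likewise at 1314 and 1066 FPKM in the 72 h saline libraries with shares of 5.96% and 5.43%, and at 793.7 and 552.7 FPKM in those with 17.4% and 22.1%. Hapln1 went the other way in these 4 low-share libraries, with 27.82 and 21.96 FPKM at 3 h after LPS and 18.39 and 18.2 FPKM at 72 h after saline. The 24 h female saline library with the lowest share of its group, 8.88%, had the highest Hapln1 of all, 62.57 FPKM. In 24 h LPS libraries with shares of 4.87% and 5.32% (males) and 5.57% (female), Hapln1 was at 14.74, 17.64 and 14.76 FPKM.

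With the share as a covariate in the fit, an alternative chosen after the data were seen, the Tnc and Hapln1 calls at 24 h held in both sexes: Tnc at -1.78 (adjusted p = 3.543e-05) in females and -1.35 (adjusted p = 0.00483) in males, Hapln1 at -1.13 (adjusted p = 6.952e-04) in females and -0.81 (adjusted p = 0.0458) in males. Ncan was then called in both sexes, at -1.23 (adjusted p = 1.967e-07) in females and -1.13 (adjusted p = 4.148e-06) in males. Bcan was called lower in females at -0.70 (adjusted p = 0.0209), and in males it was at -0.60 (adjusted p = 0.121), with the opposite sign to the fit without the covariate. In males at 24 h the shares did not overlap, at 4.87% to 16.3% after LPS and 16.8% to 23.4% after saline. The male values of this fit therefore rest on a slope shared by all groups, carried across that gap. Whether LPS itself changed the share was not tested. Scaling to the sum outside the mitochondrial genome left the calls as they were, with Tnc at -1.72 and -1.17, Hapln1 at -1.35 and -1.20 and Ncan at -0.98 and -0.56 in females and males.

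**Figure D3:**
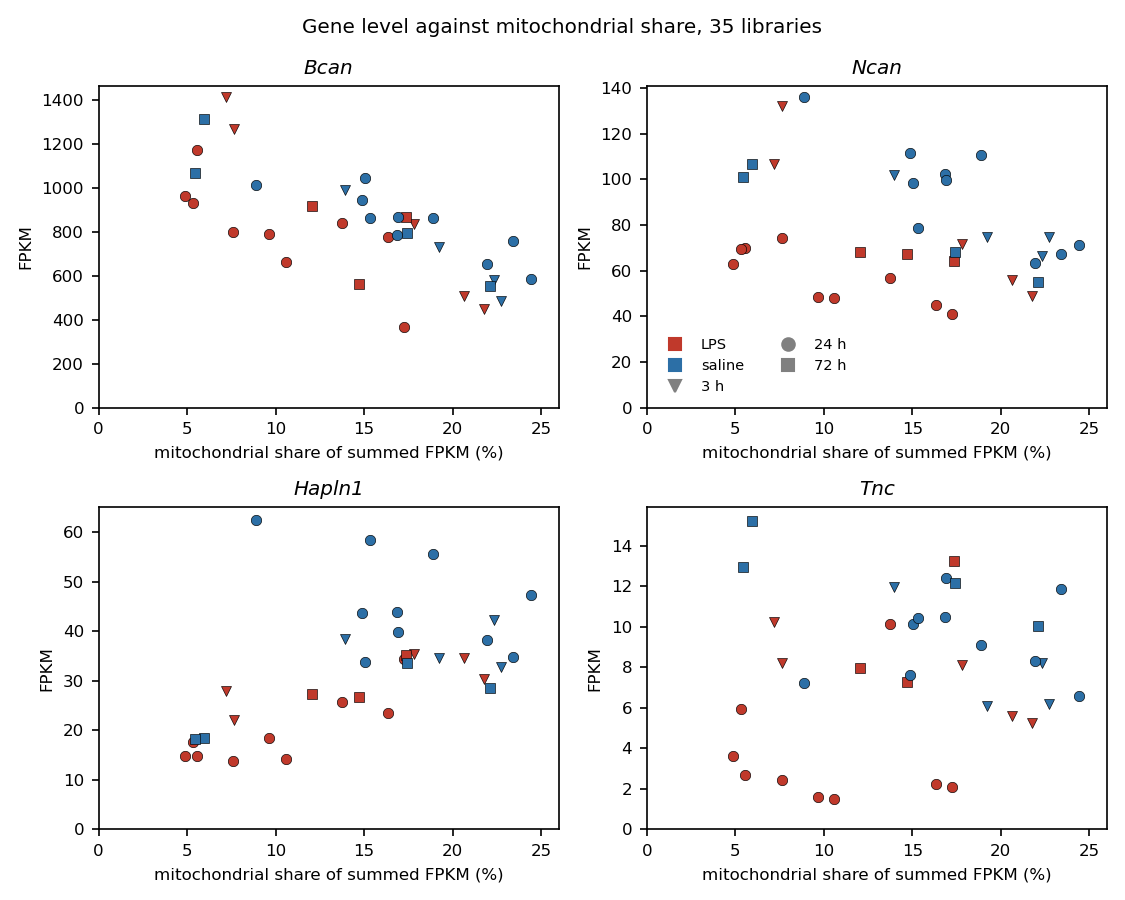
Level of Bcan, Ncan, Hapln1 and Tnc (FPKM, vertical axis) against the mitochondrial share of the summed FPKM (%, horizontal axis) in 35 libraries, LPS in red and saline in blue, triangles at 3 h, circles at 24 h and squares at 72 h. Bcan is highest at low shares, the 24 h LPS libraries lie low in Ncan and Tnc at most shares, apart from 1 male library in Tnc, and in Hapln1 those of lowest share lie beside the 72 h saline libraries of 18.39 and 18.2 FPKM.

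Ratios within a library need no scaling between libraries, and those at 24 h are given first. Bcan over Tnc was 500.7, 436.9, 447.9 and 176 in LPS females at 24 h and 83.0 to 140.3 in saline females. In males it was 330.7, 350.3, 82.86, 156.6 and 264.4 after LPS and 63.9 to 94.7 after saline, so only LPS replicate 3 lay in the saline range. Bcan over Ncan was 8.93 to 16.8 in LPS females and 7.44 to 11 in saline females, and 10.8 to 17.2 in LPS males and 7.67 to 11.3 in saline males. Bcan over Hapln1 was 10.6 to 79.4 in LPS females, with replicate 4 lowest, and 12.3 to 30.8 in saline females, and did not overlap in males, at 32.7 to 65.2 after LPS and 15.5 to 21.8 after saline. At 3 h after LPS, Bcan over Hapln1 was 50.69 and 57.65 in replicates 4 and 5, of low mitochondrial share, and 14.66 to 23.5 in the others. In saline females at 72 h it was 71.43 and 58.57 in replicates 3 and 4, also of low share. It was 23.63 and 19.45 in replicates 1 and 2, so high values were not confined to LPS libraries at 24 h. These ratios are given as a description and say nothing of which of a pair moved.

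**Figure D4:**
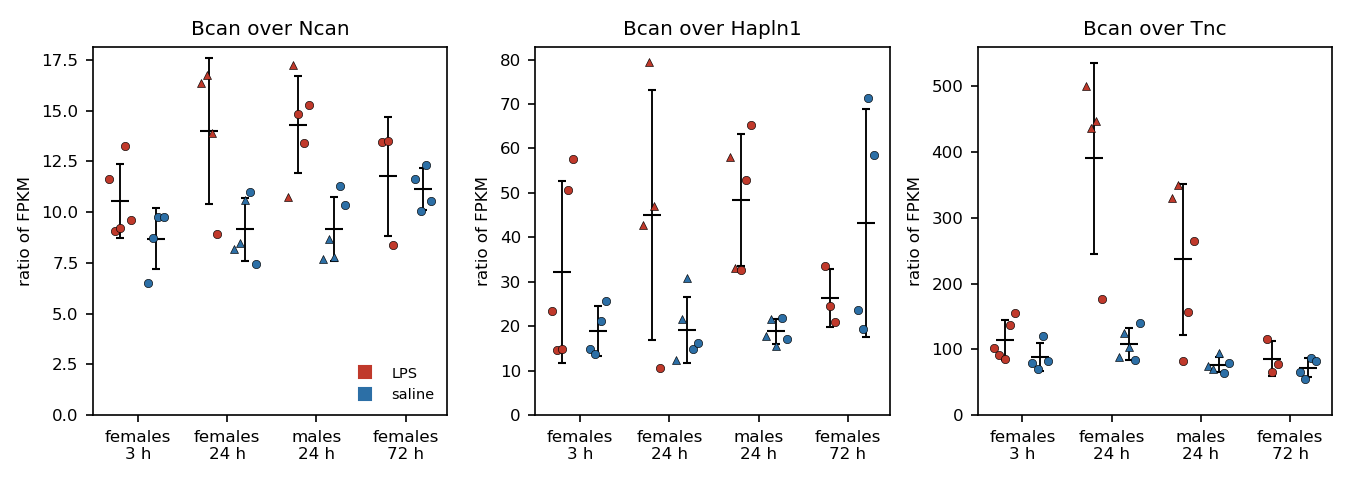
Ratio of the Bcan level to that of Ncan, Hapln1 and Tnc (ratio of FPKM, vertical axis) in each library, LPS in red left of saline in blue, circles for double-precision and triangles for single-precision libraries, with mean ± SD. Bcan over Tnc reaches 500.7 in 24 h LPS females, against at most 140.3 in saline females.

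At 3 h none of the 5 genes passed. Limma called 0 of them in either direction, with 0 at an unadjusted p under 0.05 and adjusted p of 0.602 to 0.983, where 0.443% of all genes were called lower and 1.94% higher. Tnc, so low at 24 h, was at 8.11, 5.569, 5.26, 10.24 and 8.19 FPKM after LPS and at 6.169, 8.191, 6.064 and 11.98 FPKM after saline (log2 fold change -0.09, 95% interval -0.65 to 0.46). Hapln1 was at 35.45, 34.52, 30.39, 27.82 and 21.96 FPKM after LPS and at 32.74, 42.21, 34.51 and 38.51 FPKM after saline (-0.30, -0.79 to 0.18). Vcan was at 3.231, 2.217, 3.234, 1.612 and 2.015 FPKM after LPS, all below the 3.544, 3.533, 3.579 and 3.791 FPKM after saline, which lay close together. Its log2 fold change of -0.44 (SE 0.30) had an adjusted p of 0.602. Of all genes tested, 1.70% had every LPS library below every saline library at 3 h.

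Bcan and Ncan each had both the highest and the lowest libraries of the 3 h set among LPS mice. Bcan was at 833.2, 506.1, 449.6, 1410 and 1266 FPKM after LPS and at 486.9, 579.4, 728.2 and 991.6 FPKM after saline. Ncan was at 71.61, 55.68, 48.78, 106.5 and 131.9 FPKM after LPS and at 74.64, 66.31, 74.62 and 101.9 FPKM after saline. LPS replicates 4 and 5, with the low mitochondrial shares given above, were the high ones in both genes, and without them Bcan changed sign, to -0.23 against 0.26 with all libraries.

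At 72 h, with 3 LPS and 4 saline libraries, none of the 5 genes passed. Limma called 0 members, with 0 at an unadjusted p under 0.05 and adjusted p of 0.958 to 0.993; of all genes 0.0772% were called higher and 0% lower, with 1046 at an unadjusted p under 0.05. Tnc was at 7.946, 13.26 and 7.261 FPKM after LPS and at 12.18, 10.03, 15.2 and 12.96 FPKM after saline, a log2 fold change of -0.40 with a 95% interval of -1.03 to 0.23. Hapln1 was at 27.24, 35.28 and 26.76 FPKM after LPS and at 33.59, 28.42, 18.39 and 18.2 FPKM after saline (0.30, -0.25 to 0.85). Ncan was nearly constant after LPS, at 68.09, 64.29 and 67.08 FPKM, and spread in saline libraries from 54.9 to 106.8 FPKM. Bcan was at 561.5 to 915.4 FPKM after LPS and 552.7 to 1314 FPKM after saline, and Vcan at 1.36 to 5.234 FPKM after LPS and 2.169 to 5.001 FPKM after saline.

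Set side by side over time in females, the log2 fold changes of Tnc were -0.09 at 3 h, -1.67 at 24 h and -0.40 at 72 h, those of Hapln1 -0.30, -1.28 and 0.30, and those of Ncan -0.02, -0.92 and -0.26. Each time had its own saline group. The difference of the LPS effects, 24 h minus 3 h, was -1.58 for Tnc (SE 0.38, adjusted p = 0.0390), the only member called of the 5, where 0.710% of all genes were called. It was -0.98 for Hapln1 (adjusted p = 0.256) and -0.90 for Ncan (adjusted p = 0.430). The difference 72 h minus 24 h was 1.58 for Hapln1 (SE 0.36, adjusted p = 0.0350), again the only member called, where 0.345% of all genes were called. It was 1.26 for Tnc (adjusted p = 0.227) and 0.66 for Ncan (adjusted p = 0.565).

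Both of these calls were fragile. The Tnc difference stayed between -1.46 and -1.76 but lost its call in 11 of 18 fits that left out 1 library (adjusted p up to 0.110), without any of saline 3 h replicates 1 to 3, saline 24 h replicates 2 to 4, LPS 3 h replicates 1, 4 and 5, or LPS 24 h replicates 1 and 3. The Hapln1 difference stayed between 1.45 and 1.86 but lost its call in 11 of 16 such fits (adjusted p up to 0.155), without any of saline 24 h replicates 1, 4 and 5, saline 72 h replicates 3 and 4, LPS 24 h replicates 1 to 3, or LPS 72 h replicates 1 to 3. Without both 72 h saline libraries of low mitochondrial share it was 1.22 (adjusted p = 0.422). The difference 72 h minus 3 h was called for 0 members by limma, with 0 at an unadjusted p under 0.05, where 0.762% of all genes were called.

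Between the sexes at 24 h, no difference of the LPS effects was called. Limma called 0 members, with 0 at an unadjusted p under 0.05, and 0% of all genes, with 772 genes at an unadjusted p under 0.05. The difference, females minus males, was -0.56 for Tnc (95% interval -1.32 to 0.20), -0.15 for Hapln1 (-0.81 to 0.51) and -0.42 for Ncan (-1.13 to 0.30). All 3 intervals hold 0, which does not show that the sexes respond alike.

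Between saline groups, Hapln1 was the only one of the 5 genes called. It was at 33.59, 28.42, 18.39 and 18.2 FPKM in saline females at 72 h, all below the 47.28, 43.68, 33.82, 58.52 and 62.57 FPKM of saline females at 24 h, a log2 fold change of -0.98 (SE 0.24, adjusted p = 0.0163). Between these groups 1 of the 5 genes was called, where 3.04% of all genes were called. The 72 h libraries with the lowest Hapln1, replicates 3 and 4, are those of low mitochondrial share, and the call was lost without replicate 3 (adjusted p = 0.108), without replicate 4 (adjusted p = 0.141) and without both (-0.62, adjusted p = 0.810). This saline difference enters the 72 h minus 24 h difference of Hapln1 above; LPS libraries of the 2 times were not tested against each other, and their values overlap. Between saline groups limma called 0 members for females against males at 24 h (0.0515% of all genes called, 0 members at an unadjusted p under 0.05), 0 for 24 h against 3 h (0.798%, 0 members) and 0 for 72 h against 3 h, where 2 members had an unadjusted p under 0.05 and 0% of all genes were called, with 2158 at an unadjusted p under 0.05.

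The authors' deposited table, which according to the submitters' processing notes came from DESeq2, called the same 3 genes lower in females at 24 h, where it called 1.41% of all genes lower: Tnc at -1.95 (adjusted p = 5.078e-14), Hapln1 at -1.16 (adjusted p = 0.00627) and Ncan at -0.95 (adjusted p = 0.00205). In males the authors' deposited table called 4 of the 5 genes lower, where it called 10.2% of all genes lower. These were Hapln1 at -1.30 (adjusted p = 1.316e-06), Tnc at -1.31 (adjusted p = 2.819e-04), Ncan at -0.70 (adjusted p = 0.00842) and Vcan at -1.04 (adjusted p = 0.0175). Ncan and Vcan in males therefore passed in the authors' deposited table and did not pass in limma on FPKM. Bcan passed in neither sex there, with adjusted p of 0.672 in females and 0.696 in males in the authors' deposited table.

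The nearest relatives of the 5 genes did not pass in any LPS contrast. Hapln3 was at 3.37 ± 0.762 FPKM in LPS females and 3.38 ± 0.672 FPKM in saline females at 24 h, and Tnr, the tenascin of oligodendrocytes and of perineuronal nets, at 0.844 ± 0.118 and 0.871 ± 0.144 FPKM. Hapln2, of myelinated axons, and Hapln4, of inhibitory synapses, were higher in mean in LPS males, at 2.38 ± 0.980 and 1.45 ± 0.949 FPKM against 1.21 ± 1.11 and 0.720 ± 0.498 FPKM in saline males, with adjusted p of 0.145 and 0.172. The lectican Acan and the tenascins Tnxb and Tnn are not analysed here.

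Some proteases that cut lecticans, and some tissue inhibitors of metalloproteases, were called higher after LPS. At 3 h limma called 3 of 10 proteases higher and 0 lower, where it called 1.94% of all genes higher and 0.443% lower. Adamts4, an aggrecanase that cuts brevican, was at 7.55 ± 2.54 FPKM after LPS and 1.77 ± 0.609 FPKM after saline (log2 fold change 1.596, SE 0.26, adjusted p = 7.186e-05). Adamts20, which cuts versican, was at 46.9 ± 4.83 and 10.8 ± 4.62 FPKM (2.10, SE 0.47, adjusted p = 0.00539), and Adamts1 at 19.1 ± 7.38 and 6.501 ± 1.26 FPKM (1.34, SE 0.30, adjusted p = 0.00529). At 24 h in females limma called 0 of 10 proteases, with 3 at an unadjusted p under 0.05. Of all genes in males at 24 h it called 7.08% higher and 1.82% lower. In males at 24 h it called Adamts1 higher (0.95, adjusted p = 0.0324) and the aggrecanase Adamts5 lower (-0.56, adjusted p = 0.0292), at 0.727 ± 0.288 FPKM after LPS and 1.52 ± 0.161 FPKM after saline. Both male calls were lost in the smaller within-format fits and with the mitochondrial share as a covariate. They were also lost without any of saline replicates 2 and 5 or LPS replicates 4 and 5, that of Adamts5 also without saline replicate 1. In the fits leaving out 1 library, limma adjusted p ran up to 0.117 for Adamts1 and 0.0999 for Adamts5. Over all 26 alternatives it ran up to 0.7805 for Adamts1 and 0.4501 for Adamts5.

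Which of the proteases above are blocked by the 4 tissue inhibitors of metalloproteases was not tested. Of these inhibitors, Timp1 was called higher at 3 h and at 24 h in both sexes. It was at 9.04 ± 7.58 FPKM after LPS and 0.865 ± 0.988 FPKM after saline at 3 h (log2 fold change 2.16, adjusted p = 0.00678). The 3 h call was lost in 3 of 24 alternatives (limma adjusted p up to 0.1239), among them the fit without saline replicate 1 (1.91, adjusted p = 0.0552). At 24 h Timp1 was at 48.8 ± 14.0 FPKM in LPS females, against at most 0.0707 FPKM in any saline female library, and at 33.2 ± 23.9 FPKM in LPS males, against at most 0.733 FPKM in any saline male library. By 72 h it was at 1.51 ± 0.306 FPKM in LPS females and at most 0.263 FPKM in a saline library. Timp4 was called higher at 24 h, at 174.3 ± 36.3 and 78.6 ± 17.3 FPKM in LPS and saline females (1.14, adjusted p = 0.00253) and at 137.6 ± 40.2 and 65.4 ± 10.1 FPKM in LPS and saline males (1.02, adjusted p = 0.00405). The Timp4 call was lost in 1 of 25 alternatives in females and 3 of 26 in males, and in 0 fits leaving out 1 library. Timp1 lies within the span of Syn1 and Timp4 within that of Syn2, on the opposite strand. Timp2 and Timp3 did not pass, with adjusted p of 0.199 to 0.991.

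Few genes that build the sugar chains passed. Of all genes at 24 h, limma called 0.798% lower and 2.54% higher in females, and 1.82% lower and 7.08% higher in males. Of 12 chondroitin sulphate synthesis genes limma called 0 in females at 24 h (2 at an unadjusted p under 0.05) and in males 1, Chsy1, a chain polymerising enzyme, at 6.97 ± 1.92 FPKM after LPS and 10.9 ± 2.45 FPKM after saline (log2 fold change -0.59, SE 0.18, adjusted p = 0.0347). The Chsy1 call was lost without any of saline replicates 1, 2, 3 and 5 or LPS replicates 1, 4 and 5 (adjusted p up to 0.113). Over all 26 alternatives the Chsy1 call was lost in 11 (limma adjusted p up to 0.4145). Of 9 sulphation genes limma called 0 in females (1 at an unadjusted p under 0.05) and 0 in males (3), and of 7 hyaluronan synthases and hydrolases 0 in females (0) and 0 in males (3). The hyaluronan synthases Has1 and Has2 are not analysed here. Among 4 hyaluronan receptors, Stab2, a scavenger receptor of sinusoidal endothelium, was called higher at 24 h, at 3.498 ± 2.19 and 0.245 ± 0.152 FPKM in LPS and saline females (1.64, adjusted p = 5.460e-04) and 1.82 ± 1.18 and 0.180 ± 0.0345 FPKM in LPS and saline males (1.16, adjusted p = 0.0101). The Stab2 call was lost in 1 of 24 alternatives in females and 2 of 25 in males, and in 0 fits leaving out 1 library.

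Among 12 other brain proteoglycans, a list named for chondroitin sulphate that also holds 3 glypicans and Sparcl1, the receptor phosphatase Ptprz1, whose ectodomain carries chondroitin sulphate and binds Tnc, was called lower in males at 24 h, at 201.1 ± 46.9 FPKM after LPS and 347 ± 38.1 FPKM after saline (log2 fold change -0.81, SE 0.26, adjusted p = 0.0433). It was at 230.2 ± 63.8 and 324.6 ± 93.3 FPKM in LPS and saline females (adjusted p = 0.453), and the male call was lost with the mitochondrial share as a covariate (-0.15, adjusted p = 0.762) and without any of saline replicates 1, 2, 4 and 5 or LPS replicates 1, 4 and 5 (adjusted p up to 0.137). Over all 26 alternatives the male Ptprz1 call was lost in 12. Gpc4, a glypican with heparan sulphate chains, was called higher in females at 24 h, at 18.2 ± 3.61 and 8.63 ± 0.537 FPKM after LPS and saline (0.98, adjusted p = 0.0392), a call lost when any of the 9 libraries but LPS replicate 4 was left out (adjusted p up to 0.153). Over all 25 alternatives the Gpc4 call was lost in 11. Of 11 receptors of chondroitin sulphate and tenascin limma called 0 in females at 24 h (1 at an unadjusted p under 0.05) and 0 in males (3).

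**Figure D5:**
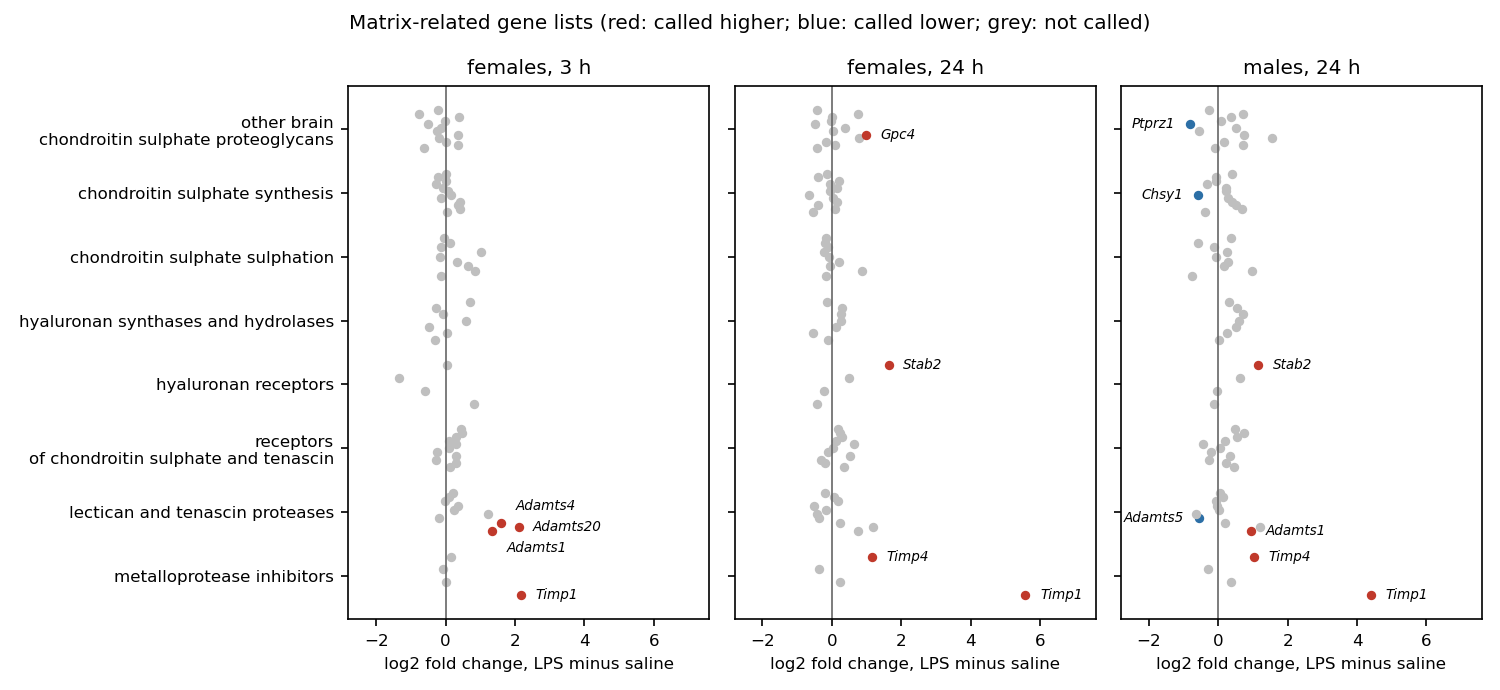
Log2 fold change (LPS minus saline, limma, horizontal axis) of each tested gene of 8 matrix-related lists in females at 3 h, females at 24 h and males at 24 h, red where called higher, blue where called lower and grey where not called. Of 10 proteases 3 are called higher at 3 h, as is the inhibitor Timp1. At 24 h the inhibitors Timp1 and Timp4 are called higher in both sexes.

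Marker genes of other cell types were scored in the same libraries, and their part in the matrix gene results was not tested. The score of 12 oligodendrocyte precursor markers, their mean log2(FPKM + 1), was 1.70 ± 0.160 in LPS females and 1.77 ± 0.367 in saline females at 24 h (exact permutation test, two-sided, p = 0.746). It was 2.34 ± 0.399 in LPS males and 1.87 ± 0.241 in saline males (p = 0.0397, exact permutation test; adjusted over 32 marker comparisons 0.181), which did not pass after adjustment. The summed precursor marker level was 57.5 to 100.1 and 39.9 to 113.2 FPKM in LPS and saline females and 68.9 to 150.5 and 53.9 to 78.4 FPKM in LPS and saline males, with 0 of 12 markers listed at 0 throughout a group. Of these markers limma called 1 higher in males, Matn4 (1.01, adjusted p = 0.00655), and 0 in females. Of all genes, 7.08% were called higher in males and 2.54% in females.

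The astrocyte marker score was 9.27 ± 0.168 and 8.97 ± 0.241 in LPS and saline females and 9.04 ± 0.228 and 8.77 ± 0.252 in LPS and saline males at 24 h (exact permutation p = 0.0794 and 0.127). Neuron markers summed to 88.0 to 154.5 and 77.3 to 158.8 FPKM in LPS and saline females, and to 128.2 to 305.8 and 102.7 to 234.8 FPKM in LPS and saline males. In males 3 of 12 were called higher, where 7.08% of all genes were called higher. Blood leukocyte markers, 4 of 10 with an entry, summed to 14.2 to 49.5 and 0.463 to 25.4 FPKM in LPS and saline females and to 14.4 to 48.6 and 1.79 to 22.5 FPKM in LPS and saline males, with 1 of the 4 listed at 0 in every saline female library; S100a8 and S100a9 were called higher in both sexes. Fibroblast and mural markers scored 2.74 ± 0.323 in LPS males and 2.19 ± 0.254 in saline males (exact permutation p = 0.0159, adjusted p = 0.102), with Col1a2 called higher in both sexes.

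At 3 h, microglia markers scored 2.79 ± 0.286 after LPS and 3.84 ± 0.403 after saline, and endothelial markers 2.36 ± 0.202 after LPS and 3.23 ± 0.205 after saline, with no overlap in their summed levels. Limma called the microglia genes P2ry12 and Gpr34 and the endothelial genes Tek, Slco1a4, Kdr and Cldn5 lower at this time. Of all genes, 0.443% were called lower. The 3 h microglia and endothelial scores had the smallest p that their group sizes allow (0.00794, exact permutation test). So did the leukocyte score in males at 24 h, and all had the same adjusted p of 0.0847, the lowest of the 32. At 72 h the leukocyte score was 2.65 ± 1.005 after LPS and 0.98 ± 0.176 after saline. That p was also the smallest its group sizes allow (0.0286, exact permutation test, adjusted 0.152). None of the 32 comparisons passed after adjustment. In females at 24 h limma called 1 of 10 microglia markers lower (P2ry12) and 1 of 10 endothelial markers higher (Ly6c1). In males at 24 h it called 3 of 10 microglia markers higher and 2 lower, and 2 of 10 endothelial markers higher. Of 10 oligodendrocyte markers it called 0 in females and 1 in males, Cnp, higher. Of all genes, 2.54% were called higher and 0.798% lower in females, and 7.08% and 1.82% in males.

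The genes whose log2 level followed each member most closely across the 35 libraries are given as a description. All libraries of a group share their treatment, and the mitochondrial share varied between libraries, also within groups. For Bcan they were Grin2c, an NMDA receptor subunit (Pearson r = 0.941), Ngef, Sema4a, Fads2 and Fam73b. For Hapln1 they were Luzp2 (r = 0.932), the membrane glycoprotein Gpm6a (r = 0.899), Slitrk2, Kbtbd7 and Pfn2. For Ncan they were the Toll-like receptor accessory gene Tril (r = 0.858), the collagen prolyl hydroxylase P4ha1 (r = 0.830), Apln, Alpl and Gramd3, and for Tnc the collagen gene Col11a2 (r = 0.810), P4ha1 (r = 0.7999), Phlpp1, Mgat5 and Alpl, so that P4ha1 and Alpl were on both of these lists. For Vcan they were Mef2a (r = 0.810), Bicd1, Lrrc9, Tcaf1 and Alcam. Between members the closest pair was Bcan and Ncan (r = 0.676), followed by Ncan and Tnc (r = 0.587), and Bcan and Hapln1 had r = -0.219.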

How the data were processed

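The deposited table gives FPKM per gene for 35 libraries of sorted cortical astrocytes, made by the authors with HISAT2 and StringTie on mm10, per the submitters' processing notes. Versions are not given in the sources used here. The authors also deposited log2 fold changes and adjusted p-values per gene, made with DESeq2 per the same notes. No counts were used, so depth in reads is unknown; FPKM summed to 456417 to 565592 per library, with 14508 to 16942 genes at an FPKM of at least 1. Of 19584 entries, 11 repeated an identifier and the first was kept.

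Groups came from the labels. Differences were tested in limma 3.58.1 (R 4.3.3; two-sided, eBayes with an intensity trend), on log2(FPKM + 1), with all 8 group means in 1 fit, and p-values were adjusted within each of 12 contrasts. All log2 fold changes, SE and adjusted p-values come from this fit unless another is named; group values are mean ± SD. The code was tested on simulated data. Number format was judged on values of at least 100, within 1e-07. The labels do not say whether equal replicate numbers mark a shared day or litter. Correlations of deviations between libraries of equal number ran from -0.52 to 0.47, which cannot decide this. Libraries were not paired in the main fit.

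The 5 genes and 19 gene lists were chosen with earlier results of these data known. Named are the 5 genes, their relatives, called list members (at most 3 per list and contrast), defining markers, and the 5 genes most like each member among 8342 genes with a mean FPKM of at least 5. Marker scores were compared by exact permutation tests. RefSeq promoter windows were searched for 6 motifs. Alternatives were another pseudocount, filter, scaling, variance model, weights, block, format, and libraries left out.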

Additional observations from a re-analysis of the deposited data

Results flagged for a closer look

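Among the differences between LPS effects, 2 passed their own test and are the ones to look at again. For Tnc the effect at 24 h minus that at 3 h in females was -1.58 on the log2 scale (limma adjusted p = 0.0390). For Hapln1 the effect at 72 h minus that at 24 h was 1.58 (limma adjusted p = 0.0350), with saline Hapln1 itself lower at 72 h than at 24 h. No library of the 35 gene and group sets of 4 or 5 libraries stood apart from its group by Dixon's criterion.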

How the results depend on the processing

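Tnc and Hapln1 at 24 h kept direction in both sexes under every alternative run. Member counts changed as follows. Lower in females at 24 h (3): 0 within double precision, with 1 LPS library; 2 within single precision, with only the groups compared, with the replicate block and in 6 of 9 fits leaving out 1 library; 4 with array weights or the mitochondrial covariate. Lower in males at 24 h (2): 1 within single and 0 within double precision; 3 by quantile normalization, median of ratios or the covariate. Called for 24 h minus 3 h (1): 0 with pseudocount 5, with the filter of 18 libraries and without both 3 h LPS libraries of low mitochondrial share, 2 with array weights or the mitochondrial covariate, and 0 to 2 leaving out 1 library. Called for 72 h minus 24 h (1): 0 by median of ratios, with only the groups compared, with the replicate block and without both 72 h saline libraries of low share, 3 with array weights, and 0 to 1 leaving out 1 library. With array weights 72 h minus 3 h had 1 and saline 72 h against 3 h had 3, against 0 each. Saline 72 h against 24 h (1) had 0 with only the groups compared or without both libraries, 2 with array weights or the covariate, and 0 to 1 leaving out 1 library.

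With the replicate block, which rests on shared numbers alone, Ncan in females at 24 h was -0.86 (adjusted p = 0.0751).

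Signs turned for values that were not called. Bcan was 0.031 in females and -0.0859 in males at 24 h within single precision, -0.0685 in males by median of ratios and -0.60 with the covariate. At 3 h it was -0.23 without both libraries and -0.0713 with the covariate. Without both 72 h saline libraries, at 72 h, Bcan was 0.21, Ncan 0.12, Hapln1 -0.0635 and Vcan -0.28. Vcan at 72 h was -0.00839 with pseudocount 0.1 and -0.0531 with the covariate, and in males at 24 h 0.00692 within single precision and 0.0192 with the covariate. Females minus males, Hapln1 was 0.00444 by median of ratios and 0.12 within double precision, and Ncan 0.0853 and Tnc 0.15 within single precision. Leaving out 1 library, Bcan at 72 h ran from -0.44 to 0.00884, Ncan at 3 h from -0.21 to 0.14, Tnc at 3 h from -0.20 to 0.0938 and Vcan at 72 h from -0.23 to 0.48. The cause was not tested. Depth in reads is unknown, so counting error is not given.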
